A study of Homo sapiens
Mus musculus and Homo sapiens with 12 samples.

Results

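KHDC1L, LEUTX, RFPL4A, RFPL4B and KDM4E are genes of the human cleavage-stage embryo, and their levels were followed in human fibroblast nuclei after fusion with mouse embryonic stem cells. They are 5 of the 18801 human genes with a coding RefSeq accession in the series and were chosen by name, with their high values 2 days after fusion already known. Their levels across these libraries are therefore given as a description, with no test. All 5 were covered by every usable library and passed the filter on low values, a level of 1 or more in at least 2 libraries.

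PolyA RNA was sequenced from 12 samples, and 11 of the deposited tables hold human transcripts. Heterokaryons at day 1, day 2 and day 3 (2 libraries each) are fused cells that keep the separate nuclei of a D3 mouse embryonic stem cell and a human fibroblast of the MRC5 line. The references are co-cultures of both cell types (2 libraries), a homokaryon in which fibroblasts were fused to fibroblasts (1 library) and unfused fibroblasts (3 libraries, 2 of them usable). Heterokaryons were purified by cell sorting before RNA extraction, and they are transient cells that are not propagated as a line. The labels give no time for the co-cultures, the homokaryon or the unfused fibroblasts, so time in culture and fusion cannot be told apart where these are the reference. Whether the 2 libraries of a group came from different cultures is not in the labels either, and every p-value below then measures only the spread between these samples, which may be technical. The homokaryon has no replicate.

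At the cleavage stages, before the blastocyst forms, the human embryo starts to transcribe its own genome. The double homeobox factor DUX4 is known to act at that time and to turn on a set of genes that most adult cells keep silent, among them paired-like homeobox genes and several families of near-identical copies. LEUTX is a paired-like homeobox transcription factor of this stage. KDM4E belongs to the JmjC histone demethylases that remove methyl groups from histone H3 lysine 9. RFPL4A and RFPL4B encode ret finger protein-like proteins, and the mouse Rfpl4 protein is known from oocytes. KHDC1L is a KH domain gene related to KHDC1, from a family with members active in oocytes and early embryos.

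Several of these genes have close relatives, which bears on what a value can say, so stretches of coding sequence are shown where a member and its nearest relative can be told apart. In the GENCODE 29 coding sequences, RFPL4A and RFPL4AL1 differed at 5 of 861 aligned bases (99.4% identity). KHDC1L and KHDC1 differed at 39 of 384 (89.8%), KDM4E and KDM4F at 105 of 1467 (92.8%) and KDM4E and KDM4D at 302 of 1484 (79.6%). RFPL4A and RFPL4B shared 64% of 741 aligned bases. Each line below gives coding bases 477 to 536 of the RFPL4A pair, 253 to 312 of KHDC1L beside 472 to 531 of KHDC1, and 1110 to 1169 of the KDM4E and KDM4F pair, with the bases that differ within a pair in capitals.
RFPL4A: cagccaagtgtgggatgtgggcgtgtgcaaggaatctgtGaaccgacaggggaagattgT
RFPL4AL1: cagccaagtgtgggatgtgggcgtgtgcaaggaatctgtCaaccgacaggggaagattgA
KHDC1L: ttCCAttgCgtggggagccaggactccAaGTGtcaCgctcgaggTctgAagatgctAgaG
KHDC1: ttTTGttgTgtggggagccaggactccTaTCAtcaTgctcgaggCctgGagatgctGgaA
KDM4E: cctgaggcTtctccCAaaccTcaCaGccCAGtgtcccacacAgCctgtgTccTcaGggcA
KDM4F: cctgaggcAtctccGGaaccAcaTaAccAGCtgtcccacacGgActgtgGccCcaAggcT

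Sequence shared with other genes was counted in windows of 36 coding bases that occur unchanged in a transcript of another GENCODE gene. No window of LEUTX was shared. The share was 33.6% for KDM4E (with KDM4D and KDM4F), 46.6% for RFPL4B (with AL365214.3) and 82.3% for RFPL4A (with RFPL4AL1 and RFPL4AP1). For KHDC1L it was 100%, all with AL365232.1. Windows were matched in either orientation, and the count holds no position or strand of the other genes. No source used here gives the authors' treatment of reads that fit several genes. The RFPL4A values are therefore uncertain as to which copy they come from, and those of KHDC1L and RFPL4B as to which of the genes with shared windows.

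LEUTX, the homeobox factor, was listed at day 2 and hardly at any other time. Its level, per transcript length and library size in a unit inferred to be RPKM, was 14.5 and 6.80 RPKM in the day 2 heterokaryons. It was unlisted in both day 1 libraries and in day 3 replicate 1, and stood at 0.382 RPKM in day 3 replicate 2. It was also unlisted in both co-cultures, the homokaryon and both unfused fibroblast libraries; the deposited tables list no zeros, and an unlisted gene within the stretch a table covers was taken as 0. Both day 2 libraries thus stood above all others, and the replicates of that day differed 2.14-fold from each other. The day 3 minus day 2 difference of mean log2(RPKM + 1) was -3.23, and 2425 of 2426 genes compared lay at or above it. LEUTX passed the filter on low values through the day 2 libraries alone and was chosen with these values known. That place among the genes is therefore only a description.

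KDM4E, the histone demethylase, was likewise highest at day 2 and, unlike LEUTX, was listed in both day 3 libraries. It stood at 7.43 and 8.46 RPKM at day 2 and at 1.01 and 2.19 RPKM at day 3. It was unlisted in both day 1 libraries, both co-cultures, the homokaryon and unfused fibroblast replicate 2, and was at 0.0273 RPKM in unfused fibroblast replicate 1. The day 2 replicates were 1.14-fold apart and did not overlap with those of day 3, which in turn did not overlap with the co-cultures. LEUTX and KDM4E were the 2 genes of the 5 without a listed value at day 1.

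RFPL4B and RFPL4A, the ret finger protein-like genes, were already listed at day 1. RFPL4B stood at 2.45 and 5.66 RPKM at day 1, at 24.1 and 26.1 RPKM at day 2 and at 5.39 and 14.9 RPKM at day 3. It was unlisted in the co-cultures, the homokaryon and the unfused fibroblasts. The day 2 libraries lay above those of every other group, and day 1 and day 3 overlapped.

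RFPL4A stood at 5.28 RPKM in day 1 replicate 1 and was unlisted in replicate 2. It reached 13.7 and 23.9 RPKM at day 2, and 4.92 and 16.6 RPKM at day 3. It was unlisted in both co-cultures and the homokaryon, with 0.0726 and 0.254 RPKM in the unfused fibroblasts. Day 3 replicate 2 was above day 2 replicate 1, so RFPL4A was the one gene of the 5 whose day 2 and day 3 libraries overlapped. The ratio of RFPL4A to RFPL4B was 0.569 and 0.916 in the day 2 libraries, 0.912 and 1.12 in the day 3 libraries and 2.16 in day 1 replicate 1.

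KHDC1L, the KH domain gene, had the highest level of the 5 in every day 2 and day 3 library. It stood at 8.21 and 0.854 RPKM at day 1, at 138 and 125 RPKM at day 2 and at 15.1 and 107 RPKM at day 3. It was at 0.722 RPKM in co-culture replicate 1 and unlisted in replicate 2, the homokaryon and both unfused fibroblast libraries. The day 2 libraries did not overlap with any other group, but day 3 replicate 2 came near them while replicate 1 was 7.09-fold lower. Of 4716 genes covered in all heterokaryon and co-culture libraries, 193 and 211 (4.09% and 4.47%) stood above KHDC1L in the day 2 libraries.

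**Figure D1:**
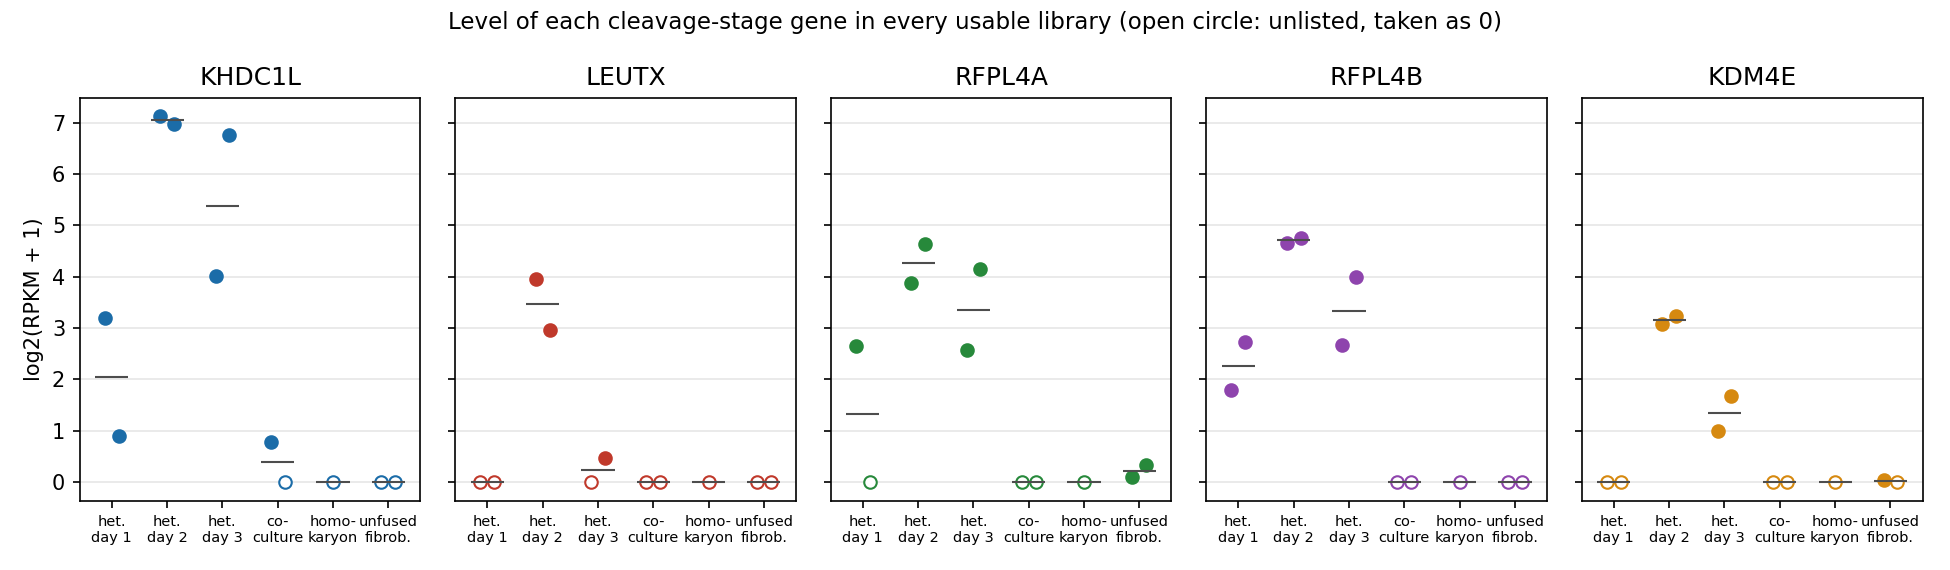
Level of each gene in every usable library, as log2(RPKM + 1); points are libraries in replicate order, open circles are unlisted genes taken as 0, and bars are group means. The day 2 points are the highest of each panel, except that 1 day 3 library of RFPL4A (16.6 RPKM) lies between its day 2 libraries (13.7 and 23.9 RPKM).

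Within day 2 the order by level was KHDC1L, RFPL4B, RFPL4A, LEUTX and KDM4E by group mean. KHDC1L was 5.73-fold and 4.77-fold above RFPL4B in the 2 libraries, and did not overlap with it. RFPL4B lay just above RFPL4A (lowest 24.1 RPKM, highest 23.9 RPKM). RFPL4A overlapped with LEUTX, and LEUTX with KDM4E, so the lower part of the order did not exceed the spread between replicates. Summed over the 5 genes, the level was 15.9 and 6.52 RPKM at day 1, 198 and 189.9 RPKM at day 2, 26.4 and 141 RPKM at day 3, and 0.722 and 0 RPKM in the co-cultures. KHDC1L made up 65.6% to 75.8% of that sum at day 2 and in day 3 replicate 2, and 57.2% in day 3 replicate 1.

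Set against the co-cultures on the scale of log2(RPKM + 1), which understates the change of low genes, all 5 genes stood far out among the genes compared at day 2. The day 2 differences were 6.65 (SE 0.96) for KHDC1L, 4.71 (SE 0.59) for RFPL4B, 4.26 (SE 0.88) for RFPL4A, 3.46 (SE 0.45) for LEUTX and 3.16 (SE 0.41) for KDM4E, against a median of 0.29 over 2426 genes. Counted from the top, KHDC1L was the gene ranked 1, RFPL4B 11, RFPL4A 14, LEUTX 27 and KDM4E 37 of 2426. All 5 were above both co-cultures in both day 2 libraries, which 39.3% of all genes were, and the choice of the genes had used this contrast.

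At day 1, 2 of the 5 genes (KHDC1L and RFPL4B) were above both co-cultures in both libraries, against 28.1% of all genes. The day 1 differences were 2.26 (SE 0.59) for RFPL4B, 1.66 (SE 0.96) for KHDC1L, 1.33 (SE 0.88) for RFPL4A and 0.00 for LEUTX and KDM4E, against a median of 0.00. Without day 1 replicate 1 the differences were 0.50 for KHDC1L and 0.00 for RFPL4A, and without replicate 2 they were 2.81 and 2.65. At day 3, 4 of the 5 (all but LEUTX) were above both co-cultures, against 26.3% of all genes. The day 3 differences were 4.99 (SE 0.96) for KHDC1L, 3.35 (SE 0.87) for RFPL4A and 3.33 (SE 0.59) for RFPL4B. KDM4E followed with 1.34 (SE 0.43) and LEUTX with 0.23 (SE 0.46), against a median of 0.07.

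**Figure D2:**
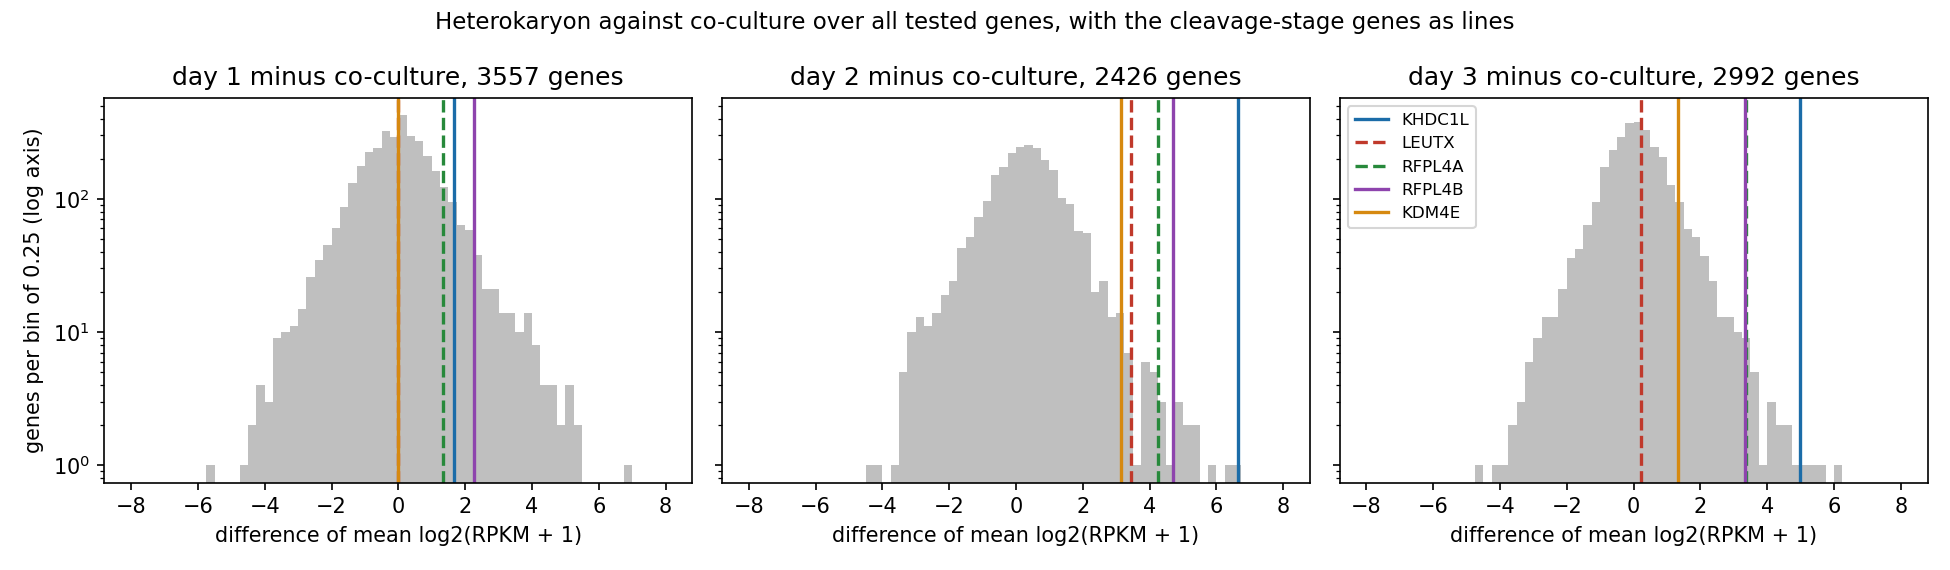
Difference of mean log2(RPKM + 1) between each heterokaryon day and co-culture; grey bars count all tested genes per bin on a log axis and lines mark the 5 genes. The lines of LEUTX and KDM4E coincide at 0.00 at day 1, all 5 lie at 3.16 or more at day 2, and RFPL4A (3.35) and RFPL4B (3.33) nearly coincide at day 3.

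Day 2 against day 1, all 5 genes were higher in both libraries, as were 30.1% of all genes. Day 3 against day 2, 4 of the 5 (all but RFPL4A) were lower in both libraries, as were 23.3% of all genes. The day 3 minus day 2 differences of mean log2(RPKM + 1) were -3.23 for LEUTX, -1.82 for KDM4E, -1.66 for KHDC1L, -1.37 for RFPL4B and -0.91 for RFPL4A, with a median of -0.17 over all genes. Both day 2 libraries were above every other library for 4 of the 5 genes (all but RFPL4A), against 6.55% of 2426 genes (unfused fibroblast replicate 1 left out for all genes, since its table covers few). The genes were chosen with their high day 2 values known. The shares and differences above are therefore a description and no support for a day 2 peak. With limma 0.33% of genes were called at day 2 against day 1 (8 of 2426), and at day 3 against day 2 none was (0%, with 199 genes at an unadjusted p under 0.05). In bulk RNA, fewer cells with a transcript and less of it per cell cannot be told apart.

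The height of the day 3 values depended on the library. On the scale of log2(RPKM + 1), day 3 replicate 2 exceeded replicate 1 by 2.75 for KHDC1L, 1.58 for RFPL4A, 1.32 for RFPL4B, 0.67 for KDM4E and 0.47 for LEUTX. The SD of that gap over 2426 genes was 1.13 around a median of 0.00, and 25 genes (1.03%) had a gap as large as that of KHDC1L or larger. For RFPL4A that share was 6.51%, for RFPL4B 9.19%, for KDM4E 23.8% and for LEUTX 30.3%, so the gaps of KDM4E and LEUTX were ordinary. All 5 genes were thus higher in the same day 3 library. At day 1 they did not move together: KHDC1L (-2.31) and RFPL4A (-2.65) were lower in replicate 2, and RFPL4B (0.95) was higher there. At day 2 the gaps ran between -0.99 for LEUTX and 0.76 for RFPL4A.

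Of 16 other cleavage-stage genes and DUX4 targets listed in a day 3 library, 11 were also higher in replicate 2 and 5 were higher in replicate 1. The share of all genes higher in replicate 2 was not counted, so this count and that of the 5 genes are a description. TRIM43B, a cleavage-stage RING finger gene, stood at 8.91 and 41.4 RPKM in day 3 replicates 1 and 2. PRAMEF12 stood at 1.33 and 5.22 RPKM and TRIM64B at 5.30 and 10.7 RPKM in the same order. Of the genes with the other direction, CCNA1, a germ cell cyclin and DUX4 target, stood at 11.6 and 6.09 RPKM, and MBD3L3, a methyl-binding-domain-like gene, at 3.98 and 0.767 RPKM. The summed fibroblast markers were 6185 and 5809 RPKM and the summed epithelial markers 592 and 349 RPKM in the same libraries. The part of library differences in the day 3 values was not tested.

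**Figure D3:**
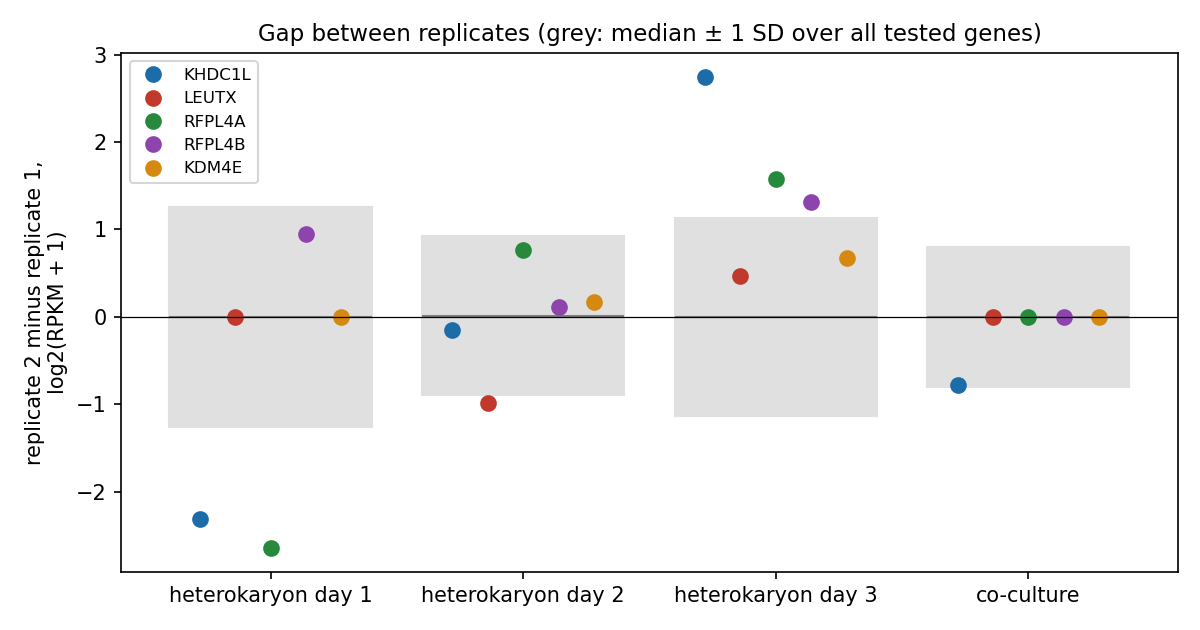
Replicate 2 minus replicate 1 on the scale of log2(RPKM + 1) for each gene (points) in each group with 2 mixed libraries; grey boxes span 1 SD either side of the median over all tested genes. The 5 points are all above 0 at day 3, while KHDC1L and RFPL4A lie at -2.31 and -2.65 at day 1.

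Single unlisted values say little at low levels. In the day 1 libraries, 8.24% of values between 5 and 20 RPKM were unlisted in the other replicate, against 1.95% in the co-cultures, and 26.9% of values between 1 and 5 RPKM, against 12.7% in the co-cultures. RFPL4A, at 5.28 RPKM in one day 1 library and unlisted in the other, was one of the 98 such values between 5 and 20 RPKM. At day 2 the share between 5 and 20 RPKM was 2.03%, and at day 3 it was 2.71%. LEUTX and KDM4E were unlisted in both libraries at day 1 and in both co-cultures.

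Of the 4716 genes covered in all heterokaryon and co-culture libraries, 1797 were unlisted in both co-cultures, the homokaryon and unfused fibroblast replicate 2. Of these, 8 genes (0.445%) reached 5 RPKM or more in both day 2 libraries, and 3 of the 8 were LEUTX, RFPL4B and KDM4E. The other genes were TRIM43B, ALOX5 (a leukotriene-producing lipoxygenase), CCL3 (a chemokine), PPY (pancreatic polypeptide) and SIGLEC14 (a sialic acid-binding receptor of myeloid cells). KHDC1L was kept out by its 0.722 RPKM in a co-culture and RFPL4A by its 0.254 RPKM in an unfused fibroblast library. KDM4E was kept in although it stood at 0.0273 RPKM in unfused fibroblast replicate 1, a library this count did not use. PPY, at 6.05 and 7.42 RPKM at day 2 and unlisted at day 1 and day 3, had the same restriction to day 2 as LEUTX had apart from its 0.382 RPKM at day 3. The level of 5 RPKM was chosen after seeing the values.

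Of 49 other cleavage-stage genes and DUX4 targets on a list drawn from general knowledge, 21 were covered at day 2 and 15 were tested with limma (adjusted p under 0.05 called, here and below). At day 2, 7 of the 15 were called higher than in co-culture and none was called lower, where 6.72% of all genes were called higher and 3.71% lower. HNRNPCL1 (log2 difference -1.11, SE 0.65) and ARGFX (-0.34, SE 0.67) had differences below 0 without a call. RFPL2, PRAMEF4 and ALPP, 3 of the 7, reached 1 RPKM in the day 2 libraries alone and so entered the test through the group where they were high. PRAMEF11 and MBD3L3 reached 1 RPKM outside day 2 in 1 library each (3.19 RPKM in day 3 replicate 2 and 3.98 RPKM in day 3 replicate 1). They too passed the filter, which asks for 2 libraries, only with day 2. None of the 7 reached 1 RPKM in a co-culture or usable unfused fibroblast library. The list was drawn with earlier results known, so the count is a description. Among all called genes at day 2, 64.4% were higher ones, against 45.3% after quantile normalization and 79.3% after upper quartile scaling. The 7 were TRIM43B, RFPL2 (a relative of RFPL4A), MBD3L3, PRAMEF4, PRAMEF11, PRAMEF12 (leucine-rich PRAME family genes) and ALPP (placental alkaline phosphatase). The count of 7 was 4 without a filter on low values, 2 after quantile normalization, 2 without day 2 replicate 1 and 1 without day 2 replicate 2 or without either co-culture replicate. The call of TRIM43B was kept under 9 of 10 alternatives, that of PRAMEF11 under 6 of 10 and those of the other genes under at most 4. MBD3L3 and the PRAMEF and TRIM43 genes have near-identical copies, so their values are uncertain as to which copy they come from.

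TRIM43B stood at 37.6 and 45.3 RPKM at day 2 and was unlisted in both co-cultures (log2 difference 5.40, SE 0.74, adjusted p = 0.00485 with limma). It stood at 1.40 and 5.16 RPKM at day 1, like RFPL4B present in both libraries. PRAMEF11 stood at 3.20 and 17.4 RPKM, PRAMEF12 at 9.99 and 2.96 RPKM and PRAMEF4 at 6.01 and 1.94 RPKM at day 2, and all 3 were unlisted at day 1 and in both co-cultures, as LEUTX and KDM4E were. RFPL2 stood at 1.26 and 3.04 RPKM at day 2, was unlisted at day 1 and day 3, and was at 0.129 RPKM and unlisted in the co-cultures (log2 difference 1.51, SE 0.38, adjusted p = 0.0417 with limma). Like LEUTX, RFPL2 reached 1 RPKM at day 2 alone.

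At day 1 none of 16 tested genes of that list was called by limma, with 2 at an unadjusted p under 0.05, against 6.44% of all genes called higher and 4.61% called lower. At day 3, 2 of 16 were higher (CCNA1 and TRIM43B) and none was lower, where 2.31% of all genes were called higher and 1.24% lower. Among all called genes at day 3, 65.1% were higher ones, against 86.8% after upper quartile scaling. That list's count was 0 without a filter on low values and 0 in a fit of the 2 groups. It was 1 with a replicate block, 2 after quantile normalization or upper quartile scaling and 3 with a pseudocount of 0.1. The day 3 call of TRIM43B was kept under 5 of 10 alternatives. CCNA1 was unlisted at day 1 and in co-culture and stood at 11.6 and 6.09 RPKM at day 3 (log2 difference 3.24, SE 0.53, adjusted p = 0.0265 with limma), a call kept under 5 of 9 alternatives. It already stood at 10.9 RPKM in day 2 replicate 2. Day 2 replicate 1 does not cover CCNA1, so it was not tested at day 2. CCNA1 was also the one gene of the list called at day 3 against day 1, where 0.702% of all genes were called higher; that call (adjusted p = 0.046 with limma) was kept under 3 of 9 alternatives, with an adjusted p of up to 0.298. TRIM64B, another copy-rich TRIM gene, stood at 13.5 and 0.747 RPKM at day 2 and at 5.30 and 10.7 RPKM at day 3, and did not pass the test at either day.

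**Figure D4:**
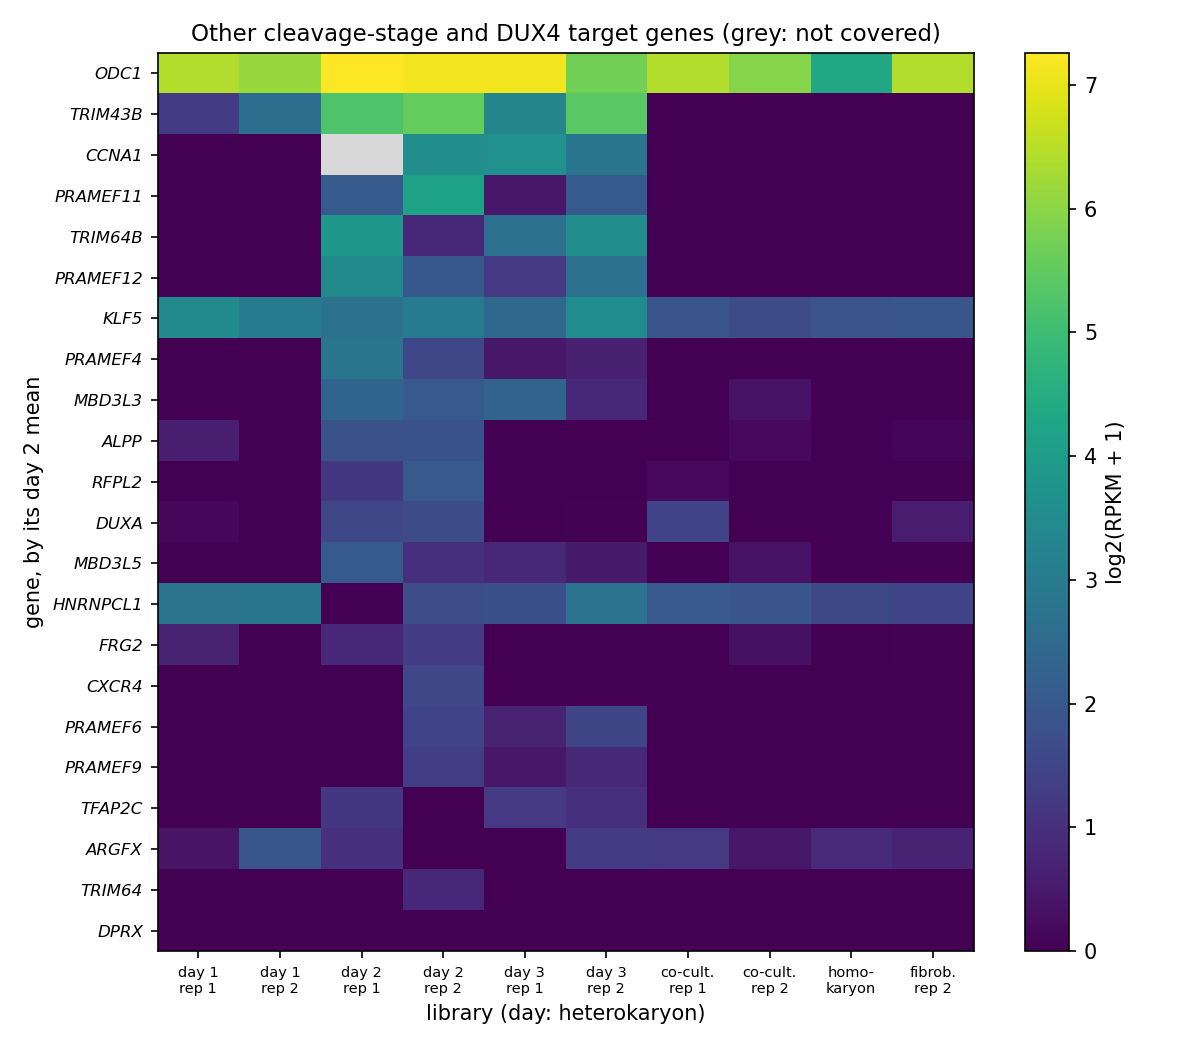
Other cleavage-stage genes and DUX4 targets (rows, by their day 2 mean) in each library (columns), coloured by log2(RPKM + 1); grey marks a gene the table does not cover. TRIM43B and the PRAMEF genes are at 0 in the co-cultures, the homokaryon and unfused fibroblast replicate 2 and above 0 in most day 2 and day 3 libraries, while ODC1 is high throughout.

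Nearer relatives of the 5 genes were thinly covered. Of 17 other paired-like homeobox genes 6 were covered at day 2 and 4 were tested, and none was higher than in co-culture. DUXA, a target of DUX4, stood at 1.90 and 2.24 RPKM at day 2, against 1.74 RPKM and unlisted in the co-cultures. PITX1, a paired-like factor known from the hindlimb, was lower at 0.237 and 1.96 RPKM at day 2, against 15.7 and 17.2 RPKM in co-culture (log2 difference -3.19, SE 0.76, adjusted p = 0.0396 with limma). That PITX1 call was lost under 6 of 10 alternatives, with an adjusted p of up to 0.194.

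For KHDC1, the nearest relative of KHDC1L, the tables cover one transcript of several. That transcript was unlisted and at 2.41 RPKM at day 2, at 4.74 RPKM and unlisted at day 1, and at 2.64 and 0.517 RPKM at day 3, against 0.153 RPKM and unlisted in the co-cultures. The level of the whole KHDC1 gene is not known from it. The other KDM4 genes and RFPL4AL1 were not analysed here, so levels of KDM4E and RFPL4A could not be set beside those of their closest copies. DUX4 and ZSCAN4 were not analysed here either.

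Few genes next to the 5 in the genome were covered. FBL, a nucleolar protein gene near LEUTX on chromosome 19, stood at 136 and 139 RPKM at day 2, against 109.8 and 102 RPKM in co-culture. CLC, a galectin gene on the other side of LEUTX, was unlisted in all libraries that cover it. LAMA4, a laminin gene next to RFPL4B on chromosome 6, stood at 32.0 and 41.0 RPKM at day 2, against 37.9 and 42.7 RPKM in co-culture, and MARCKS on the other side at 2.45 and 5.10 RPKM, against 5.13 and 6.55 RPKM. FAM229B, a further gene on the LAMA4 side of RFPL4B, stood at 5.37 and 4.71 RPKM at day 2, against 3.38 and 2.94 RPKM in co-culture. It was unlisted in both day 1 libraries and in day 3 replicate 1, and stood at 2.90 RPKM in day 3 replicate 2. DPPA5, a pluripotency gene beside KHDC1 and KHDC1L on chromosome 6, was listed in day 2 replicate 1 alone, at 1.79 RPKM. RFPL4A lies on chromosome 19 and KDM4E on chromosome 11, and no close neighbour of theirs was covered.

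The genes most alike in their course over the 8 heterokaryon and co-culture libraries were found by Pearson's r of log2(RPKM + 1) among 2424 genes, as a description whose points are replicates of 4 groups and of unknown depth. For KHDC1L they were RFPL4A (r 0.976), SOWAHB (0.971), MDK (0.970) and B4GALT1 (0.966). For RFPL4A they were NPNT (r 0.990), KHDC1L (0.976), SSTR2 (0.970) and FTH1 (0.970). KHDC1L and RFPL4A thus named each other; both were higher in day 1 replicate 1 and in day 3 replicate 2 than in the other replicate. MDK, a heparin-binding growth factor, is an example at another height, with 985 and 832 RPKM at day 2, 698 and 1078 RPKM at day 3 and 227 and 139 RPKM in co-culture.

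For RFPL4B the most alike genes were PNP (r 0.982), TRIM43B (0.980), GRIP2 (0.970) and DSG2 (0.968). PNP, a purine salvage enzyme, stood at 108 and 107 RPKM at day 2, against 24.9 and 23.8 RPKM in co-culture. For KDM4E they were EFNB3 (r 0.962), KCNJ2 (0.961), ARHGEF35 (0.950) and ZNF599 (0.940), and for LEUTX KCNJ10 (ranked first), ARHGEF35 (0.988), KCNE1 (0.986) and SAMD13 (0.984). The LEUTX values of r rest on 3 libraries above 0, and KCNJ10, an inward-rectifying potassium channel, was listed in the same 3 libraries, at 3.46 and 2.11 RPKM at day 2 and 0.243 RPKM in day 3 replicate 2. Among the 5 genes themselves r ran from 0.657 (LEUTX and RFPL4A) to 0.976, and LEUTX was closest to KDM4E (0.913).

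Markers of the cell types involved were read in the same libraries. Of 12 fibroblast markers 7 were covered, and their summed level was 6549 and 7061 RPKM at day 1, 4288 and 4832 RPKM at day 2, 6185 and 5809 RPKM at day 3 and 6259 and 6285 RPKM in co-culture. COL3A1 (log2 difference -1.27, SE 0.29, adjusted p = 0.0287) and PDGFRB (-1.20, SE 0.29, adjusted p = 0.0405) were lower at day 2 with limma, calls kept under 3 and 4 of 10 alternatives. These were 2 of 7 tested, where 3.71% of all genes were called lower. At day 1, 2 of 7 were also lower with limma, where 4.61% of all genes were. They were PDGFRB (-1.32, adjusted p = 0.0276) and LOX (-1.40, adjusted p = 0.0482), calls kept under 7 and 1 of 10 alternatives. PDGFRB stood at 73.9 and 88.2 RPKM in co-culture and at 41.3 RPKM in unfused fibroblast replicate 2. The 4 covered of 13 oocyte and germ cell markers (ZP2, FIGLA, NOBOX and DAZL) were unlisted in every heterokaryon, co-culture, homokaryon and unfused fibroblast library that covers them all. The 4 covered of 9 trophoblast markers summed to 0 and 5.13 RPKM at day 1, 3.63 and 0 RPKM at day 2 and 0 and 1.96 RPKM at day 3. They summed to 0 in both co-cultures and to 1.55 RPKM in unfused fibroblast replicate 2. KRT7, a trophoblast marker tested at day 1 only, stood at 6.64 and 2.73 RPKM there and was unlisted in both co-cultures. It was not called (log2 difference 2.42, SE 0.59, adjusted p = 0.0555 with limma).

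Of the epithelial markers, KRT19 and CLDN4 were called higher than in co-culture at day 1 (2 of 5 tested) and day 2 (2 of 4), and KRT19 at day 3 (1 of 5), and none was lower. The 4 covered of 6 summed to 154 and 109 RPKM at day 1, 281 and 595 RPKM at day 2 and 592 and 349 RPKM at day 3, against 5.94 and 20.3 RPKM in co-culture. These sums hinge in part on KRT8, which was unlisted in day 2 replicate 1 and at 233 RPKM in replicate 2. In co-culture KRT8 was unlisted in replicate 1 and at 12.4 RPKM in replicate 2. KRT19, an epithelial keratin, was higher at day 2 (259 and 329 RPKM, against 5.94 and 6.29 RPKM in co-culture; log2 difference 5.36, SE 0.33, adjusted p = 0.000292 with limma). Of 15 pluripotency markers 4 were covered by every heterokaryon and co-culture library (SOX2, LIN28B, DPPA5 and UTF1), with sums of at most 1.89 RPKM and SOX2 unlisted throughout. At day 1 the test also took PODXL and KLF4, and PODXL, a sialomucin, was higher at 137 and 151 RPKM, against 7.39 and 11.04 RPKM in co-culture (log2 difference 3.85, SE 0.34, adjusted p = 0.00393 with limma). At day 3 it took KLF4, a pluripotency factor, which was higher at 9.16 and 16.0 RPKM, against 0 and 1.01 RPKM in co-culture (adjusted p = 0.0388 with limma, a call kept under 2 of 9 alternatives). POU5F1, a pluripotency factor covered for 2 of its 3 accessions, stood at 26.9 and 27.4 RPKM at day 1, 56.9 and 48.6 RPKM at day 2, 27.3 and 18.7 RPKM at day 3 and 0 and 0.0847 RPKM in co-culture. POU5F1 was thus also highest at day 2, but had reached close to its day 3 level by day 1, when LEUTX and KDM4E were unlisted. The part of any of these marker lists in the levels of the 5 genes was not tested.

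The co-cultures hold RNA of mouse embryonic stem cells beside that of human fibroblasts, and in them no gene of the 5 exceeded 0.722 RPKM. The part of reads from mouse transcripts made after fusion in the human values was not tested.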

How the data were processed

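The deposited tables hold 1 value per RefSeq transcript accession; the unit was inferred to be RPKM, computed by the authors before they deposited the tables, with hg19 and mm10 named in the submitters' processing notes and no aligner or counter stated in the sources used here. The table of unfused fibroblast replicate 3 was deposited as a signal of unstated unit without human accessions and was not used. The non-human accessions of replicate 1 and all mouse transcripts were not analysed here. Read depth is unknown.

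Each of the other 11 tables holds exactly 10000 distinct values, no 0, and stops at a different accession. An accession missing before that end was taken as 0, and one past it as not covered. Coding accessions, named with RefSeq tables, were summed per gene, and 378 genes close to unnamed accessions were set aside. Each of the 5 genes has a single coding accession.

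The test was limma (version 3.58.1, R version 4.3.3; lmFit, eBayes with trend) on log2(RPKM + 1). It took genes that reached 1 RPKM in 2 or more of 10 libraries, with Benjamini-Hochberg adjustment over all genes tested and calls under 0.05. The homokaryon, with 1 library, entered no test. On simulated data with 200 genes moved by 2 on the log2 scale, the fit was checked for recovered genes and sign. Genes named beyond the 5 are, per list and comparison, called genes with the smallest adjusted p, list genes of the same families, and the 4 genes with the highest r; others, such as TRIM64B, PPY and the day 2 calls past the fourth, were named after their values were seen. The 5 genes and all lists were chosen with earlier results of these data known. Sequences come from GENCODE 29, whose build differs from that of the tables, so no coordinates are given. Alternatives tried were a pseudocount of 0.1, no filter, quantile normalization, upper quartile scaling, a fit of the compared groups alone, a replicate block and leaving out each library.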

Additional observations from a re-analysis of the deposited data

How the results depend on the processing

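Of 105 alternative values of the 5 genes' differences from co-culture none changed sign. LEUTX, RFPL4A, RFPL4B and KDM4E were unlisted in both co-cultures, so their differences could not turn negative under any alternative. The 105 also hold the largest single transcript of each gene, which could change no value, since each gene has a single coding transcript. The lack of sign changes is therefore no support for the differences. The differences of RFPL4A at day 1 (without day 1 replicate 1) and LEUTX at day 3 (without day 3 replicate 2) went to 0.00. Without 1 or the other day 2 replicate, the day 2 difference was 2.96 or 3.96 for LEUTX and 4.64 or 3.88 for RFPL4A. With 2 libraries per group, these shifts are set by the gaps between the day 2 replicates (-0.99 for LEUTX and 0.76 for RFPL4A). They add no separate measure of stability. With a pseudocount of 0.1, 13 differences were larger, and those of LEUTX and KDM4E at day 1 stayed at 0.00. With that pseudocount the day 2 differences were 8.84 for KHDC1L, 7.98 for RFPL4B, 7.51 for RFPL4A, 6.65 for LEUTX and 6.33 for KDM4E. Without day 3 replicate 2 the day 3 difference of KHDC1L was 3.62 and without replicate 1 it was 6.36.

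The counts of genes called with limma moved more. Against co-culture, 393 genes were called at day 1, with 240 without a filter and 224 in a fit of the 2 groups; 253 at day 2, with 509 in a fit of the 2 groups; and 106 at day 3, with 12 in that fit. Between days, day 2 against day 1 gave 8 calls, with 20 without a filter, 23 after upper quartile scaling (95.7% higher, against 75% in the 8) and 0 with a pseudocount of 0.1, quantile normalization or a fit of the 2 groups. Day 3 against day 1 gave 38, with 8 at a pseudocount of 0.1, 9 without a filter, 97 after upper quartile scaling (87.6% higher, against 55.3% in the 38) and 0 in a fit of the 2 groups. Day 3 against day 2 gave 0, with 199 genes at an unadjusted p under 0.05, and 9 calls without a filter. Leaving out 1 library at a time gave 42 to 342 calls at day 1 (the fewest without co-culture replicate 1), 28 to 46 at day 2 (fewest without day 2 replicate 2) and 5 to 166 at day 3 (fewest without co-culture replicate 1, most without day 3 replicate 1). It gave 0 to 5 for day 2 against day 1, 0 to 18 for day 3 against day 2 and 0 to 56 for day 3 against day 1.

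Replicate numbers do not pair the samples by the labels, and replicate differences correlated by -0.11 to 0.08 between groups over genes. With the replicate number as a block, 197 genes were called at day 1, 138 at day 2 and 44 at day 3 against co-culture, and 0 in each comparison between days. With the day 3 numbers crossed, an alternative chosen after seeing the data, day 3 against day 2 also gave 0. Upper quartile scaling moved the median of all genes to 0.51 at day 2 (0.29 as deposited) and to 0.37 at day 3 (0.07), and the causes of these changes were not tested. The counts of the cleavage-stage list under the alternatives were also added after seeing the data. With 2 libraries per group and unknown depth, absence at low levels could not be told from sampling.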
